A study of Mus musculus with 4 samples.

Results

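Aminoacyl-tRNA synthetases were taken as all genes of the deposited count table whose symbol is an amino acid letter followed by "ars", alone or with a final 1 or 2, together with Farsa, Farsb, Fars2 and Eprs. This gave 37 of the 55453 genes in the table, 20 for cytosolic enzymes and 17 for mitochondrial enzymes, whose symbols end in 2. Messenger RNA was sequenced in 4 libraries from mouse germinal vesicle oocytes, which rest in the prophase of meiosis until they mature. The tested libraries were 2 of Parp12 knockdown oocytes, called Parp12KD, and they were compared with 2 Control libraries labelled as wild type. Oocytes of both groups were taken directly from the ovary. The strain and age of the mice, the number of oocytes in a library and how the knockdown was made are not stated in the labels. Parp12 encodes an ADP-ribosyltransferase of the PARP family, and the comparison asks how the oocyte transcriptome differs when it is reduced.

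Synthetases join each amino acid to the transfer RNAs that read its codons, and together they supply the cytosolic and the mitochondrial ribosome. Most amino acids have separate nuclear genes for the enzymes of these compartments. In mammals Gars and Kars each give rise to both a cytosolic and a mitochondrial enzyme, and glutamine has a cytosolic enzyme, Qars, but reaches mitochondrial transfer RNA through an amidotransferase. Eprs carries the glutamyl and the prolyl activity in a single protein, whereas mitochondria have Ears2 and Pars2 for them. Farsa and Farsb encode the subunits of cytosolic phenylalanyl-tRNA synthetase, and Fars2 encodes a single-chain mitochondrial enzyme. A growing oocyte stores transcripts and proteins for the translation that follows ovulation, when transcription has stopped.

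Of 3 motifs searched in the promoters, 1 was found in cytosolic genes and in no mitochondrial gene, and the sequences that hold it are shown for that reason. ATF4, the transcription factor of the amino acid response, is known to bind a composite C/EBP-ATF element in many synthetase promoters. RefSeq promoter windows on GRCm38.p6, from 250 bases before to 50 after the gene start, were matched for 27 of the 37 genes. In 23 of them the window also held the outermost start of the gene in GENCODE, and in 4 it did not. The letters TGATGNAA, on either strand, occurred in 5 of 13 cytosolic promoters (Aars, Gars, Iars, Tars and Yars) and in 0 of 14 mitochondrial promoters. They occurred in 3.97% of all 32851 promoter windows. These counts describe letters, with no test. Genes with no matched window included Cars, Rars, Wars, Vars, Hars, Lars, Nars, Pars2 and Hars2. Sequences are given in the direction of the gene, with the matched letters in capitals. The whole window is given for Aars, chr8:111033592-111033891 on the plus strand, which held the motif at 2 places. RefSeq places the start of Aars at 111033842, which is 698 bases downstream of the outermost GENCODE start, so this window lies inside the gene as GENCODE draws it. For the others 30 bases around the motif are given.
Aars: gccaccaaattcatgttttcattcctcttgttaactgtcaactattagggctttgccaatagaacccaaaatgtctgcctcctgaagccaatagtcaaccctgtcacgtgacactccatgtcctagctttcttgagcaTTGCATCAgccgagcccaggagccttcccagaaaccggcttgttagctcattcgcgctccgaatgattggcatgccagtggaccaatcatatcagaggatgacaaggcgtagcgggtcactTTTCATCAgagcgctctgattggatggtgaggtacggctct
Gars, plus strand, chr6:55037960-55037989: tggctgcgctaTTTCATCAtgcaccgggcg
Iars, plus strand, chr13:49682126-49682155: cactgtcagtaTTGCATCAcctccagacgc
Tars, minus strand, chr15:11399655-11399684: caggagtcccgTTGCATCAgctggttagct
Yars, plus strand, chr4:129189895-129189924: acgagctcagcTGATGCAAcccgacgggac
In the genes other than Yars the matched letters lay on the strand opposite to the gene, so the capitals read as the reverse complement of the motif.

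Parp12 RNA was depleted in both knockdown libraries, as their labels say. It had 32 and 86 counts in Parp12KD oocytes, against 14279 and 9419 counts in Control oocytes. It was the only gene that edgeR's quasi-likelihood test called at an adjusted p under 0.05, with a log2 fold change of -7.51 (SE 0.34, adjusted p 1.27e-07). Library totals ran from 35805122 to 45230773 counts, so that 3 counts, the most that a count of 0 allows, equalled between 0.0663 and 0.0838 CPM, or counts per 1000000 library counts. All 10 listed oocyte markers had counts, summing to between 23770 and 25690 CPM. Granulosa and cumulus markers summed to between 409.5 and 490.8 CPM. In all libraries 8 of the 16 were at 0, among them Amh, Foxl2 and Inhba. Most of the sum came from Serpine2, with 365.7 and 426.7 CPM in Parp12KD libraries and 442.3 and 397.9 CPM in Control libraries. Cyp19a1 had 26.66 and 23.77 CPM in Parp12KD libraries, and 24.67 and 29.29 CPM in Control libraries. Kitl had 15.31 and 13.74 CPM in Parp12KD libraries, and 21.58 and 18.15 CPM in Control libraries. Fshr had 1.809 and 5.362 CPM in Parp12KD libraries, and 1.702 and 3.591 CPM in Control libraries. Every other marker of this list was at 0 in some or all libraries. Theca and stroma markers summed to between 2.40 and 6.45 CPM, and blood and immune markers to 3.05 and 2.40 CPM in Parp12KD libraries and 0.486 and 1.10 CPM in Control libraries. Their part in the values below was not tested. Synthetase genes took 0.345% and 0.355% of the counts in Parp12KD libraries, and 0.334% and 0.345% in Control libraries. In such bulk libraries fewer cells of a type and less RNA per cell cannot be told apart.

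The cytosolic enzymes were among the better expressed genes of the oocyte, and a few dominated. Levels of different genes are given as CPM per kb of exons, averaged over the 4 libraries where no library is named. The median cytosolic gene had 17.7 CPM per kb, against 3.29 CPM per kb for the median of 15868 tested genes. Of the 20 cytosolic genes, 18 lay above that median and 12 lay in its upper quartile. Iars, for isoleucine, was the highest with 109.3 and 118.5 CPM per kb in Parp12KD libraries, and 111.4 and 104.1 CPM per kb in Control libraries. Qars, for glutamine, followed with 88.7 and 88.4 CPM per kb in Parp12KD libraries, and 88.4 and 91.4 CPM per kb in Control libraries. The groups overlapped for both genes. Their order depended on the length used, since per kb of coding sequence Qars had 252.2 and Iars 154.3 CPM. Iars and Qars together made up 37.8% and 37.6% of the summed cytosolic CPM in Parp12KD libraries, and 39.5% and 38.2% in Control libraries. Rars for arginine, Farsb for phenylalanine and Nars for asparagine came next, with 85.4, 63.8 and 59.3 CPM per kb. Gars for glycine had 40.8 CPM per kb, and Sars for serine, Kars for lysine, Aars for alanine and Wars for tryptophan lay between 20.1 and 25.1 CPM per kb. Tars, Lars, Farsa, Mars, Cars and Hars lay between 10.1 and 15.4 CPM per kb. Eprs and Dars, for aspartate, lay at 8.15 and 7.72 CPM per kb. The place of Eprs also depended on the length used. Per kb of coding sequence it had 32.5 CPM, rank 13 of the 20 cytosolic genes, above Cars, Lars, Dars, Hars and Mars.

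The cytosolic enzymes for valine and tyrosine stood far below the rest. Vars had 0.758 and 1.34 CPM per kb in Parp12KD libraries, and 0.997 and 1.08 CPM per kb in Control libraries. Yars had 0.873 and 0.996 CPM per kb in Parp12KD libraries, and 0.595 and 1.57 CPM per kb in Control libraries. The groups overlapped for both, and each gene lay below 7.72 CPM per kb, the level of the next lowest cytosolic gene, in every library. In counts, Vars ran from 181 to 269 and Yars from 160 to 383.

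**Figure D1:**
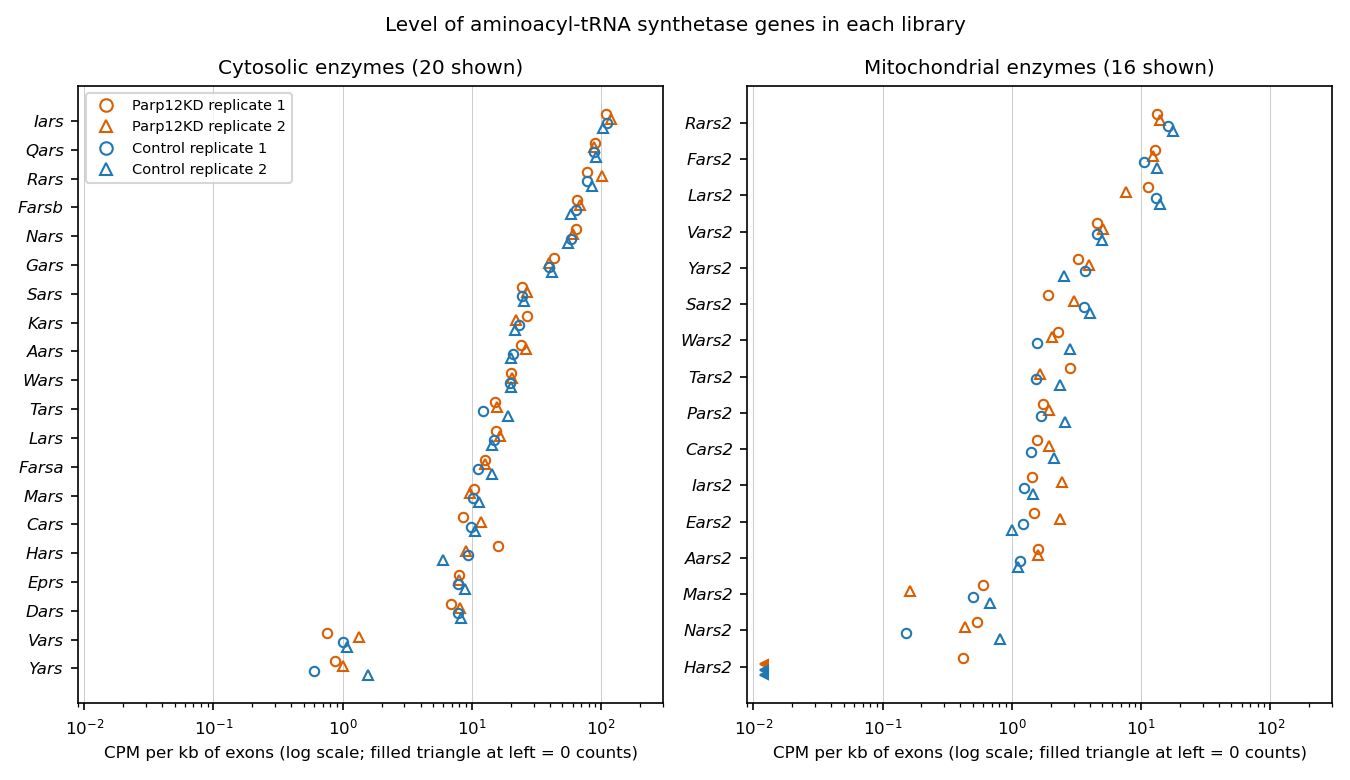
Level of the synthetase genes, 36 of 37 shown, in CPM per kb of exons on a log scale, cytosolic enzymes on the left and mitochondrial enzymes on the right, with 1 symbol for each library (orange Parp12KD, blue Control, circle replicate 1, triangle replicate 2). Most cytosolic genes lie between 7.72 and 110.8 CPM per kb, Vars and Yars lie near 1.04 and 1.01, and the highest mitochondrial gene, Rars2, lies at 15.3.

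Mitochondrial enzymes had lower transcript levels. Their median was 2.09 CPM per kb, and 5 of the 16 tested genes lay above the median of all tested genes. Rars2, for arginine, was the highest per kb of exons, at 13.3 and 14.0 CPM per kb in Parp12KD libraries, and 16.1 and 17.8 CPM per kb in Control libraries. Fars2, for phenylalanine, and Lars2, for leucine, followed at 12.2 and 11.5 CPM per kb. Per kb of coding sequence the order was Fars2, Lars2 and Rars2, with 49.7, 47.2 and 24.5 CPM. The other 14 lay between 0.106 and 4.80 CPM per kb, led by Vars2 for valine. Hars2, for histidine, was the lowest and the only member that did not pass the filter on low counts. It had 77 and 0 counts in Parp12KD libraries, and 0 counts in both Control libraries. It shares 195 exonic bases with Hars on the other strand, and no label or header says if reads were counted by strand.

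In each library the cytosolic median exceeded the mitochondrial one. The ratio of the medians per kb of exons was 9.46 and 7.81 in Parp12KD libraries, and 10.9 and 7.96 in Control libraries. Per kb of the longest coding sequence, a length chosen after seeing the data, it was 6.57 and 6.36 in Parp12KD libraries, and 6.67 and 7.63 in Control libraries. The groups overlapped in both measures. The cytosolic genes summed to 3068 and 3204 CPM in Parp12KD libraries, against 2959 and 3013 CPM in Control libraries. Both knockdown sums thus lay above both controls. Singly, 5 of the 20 cytosolic genes had both knockdown libraries above both controls, and 0 had both below. Of all tested genes, 18.0% lay above and 16.8% below in this way. The mitochondrial genes summed to 385.7 and 348.5 CPM in Parp12KD libraries, and 375.8 and 434.7 CPM in Control libraries, which overlapped. Lars2 alone made up 32.7% and 24.4% of the mitochondrial sum in Parp12KD libraries, and 38.6% and 35.7% in Control libraries. Without it the mitochondrial sums were 259.5 and 263.5 CPM in Parp12KD libraries, and 230.9 and 279.5 CPM in Control libraries.

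Enzymes for the same amino acid were compared within each library, in 18 pairs. The histidine pair was set aside because Hars2 was at 0 in 3 of the libraries. Eprs was paired with both Ears2 and Pars2, and Fars2 with both Farsa and Farsb, so the pairs are not all separate enzymes. In 14 of the other 17 pairs the cytosolic gene was higher per kb of exons in all 4 libraries. Per kb of coding sequence the cytosolic gene was higher in all 4 libraries in 13 pairs, and the mitochondrial gene in 4. The median of the 17 mean ratios was 5.58. Nars over Nars2 was the widest, at 119 and 140 in Parp12KD libraries, and 381 and 67.2 in Control libraries, where Nars2 had only 48 and 233 counts. Iars exceeded Iars2 by 75.9 and 48.4 times in Parp12KD libraries, and by 89.3 and 71.0 times in Control libraries.

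For valine and tyrosine the order was turned round. Vars2 had 4.56 and 5.06 CPM per kb in Parp12KD libraries, and 4.59 and 4.99 CPM per kb in Control libraries, between 3.78 and 6.02 times the level of Vars in the same library. Yars2 had 3.27 and 3.94 CPM per kb in Parp12KD libraries, and 3.67 and 2.55 CPM per kb in Control libraries, between 1.62 and 6.17 times the level of Yars. These orders held in all 4 libraries, and they also held per kb of coding sequence, where the lowest ratios were 4.44 for valine and 1.03 for tyrosine. Fars2 and Farsa lay close, with Farsa between 0.991 and 1.08 times Fars2. Lars exceeded Lars2 by 1.02 to 2.14 times per kb of exons, but per kb of coding sequence it was lower in every library, at 0.377 to 0.794 times Lars2. Farsa was likewise lower than Fars2 on the coding scale, at 0.724 to 0.790 times.

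**Figure D2:**
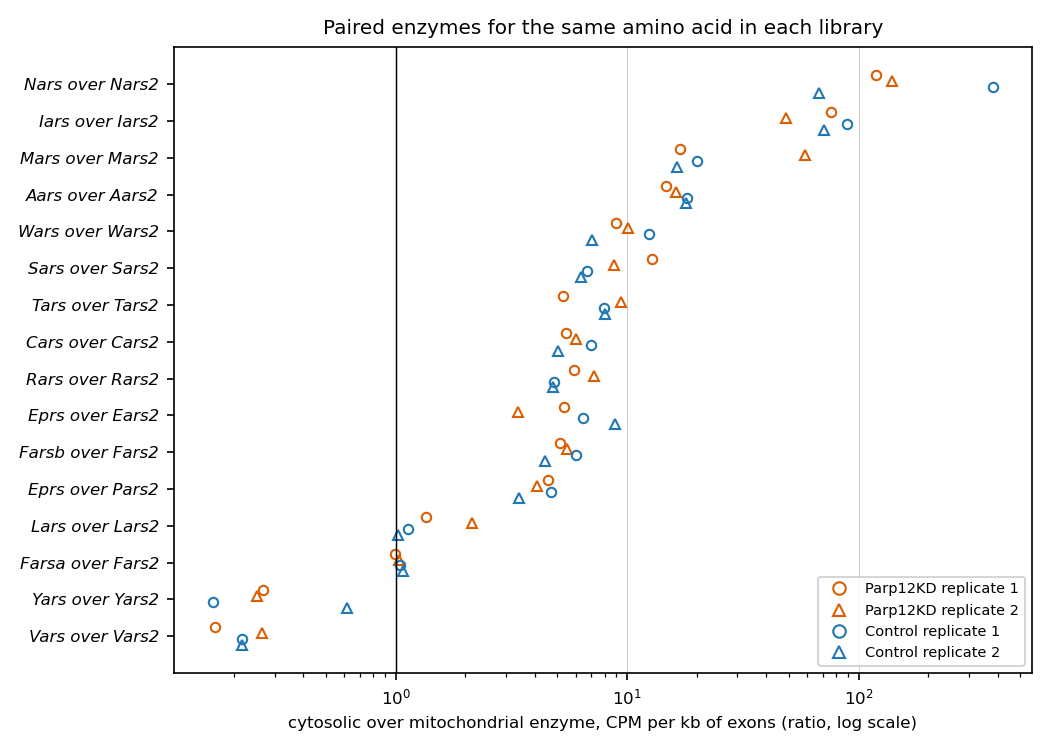
Ratio of the cytosolic to the mitochondrial gene for the same amino acid in each library, in 16 of the 17 pairs, in CPM per kb of exons on a log scale, with orange symbols for Parp12KD and blue for Control (circle replicate 1, triangle replicate 2). The vertical line marks equal levels: the valine and tyrosine pairs lie left of it in all 4 libraries, and Farsa over Fars2 lies on it, between 0.991 and 1.08.

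No synthetase gene passed edgeR's test between Parp12KD and Control oocytes. Of 36 tested members, 0 were called higher and 0 lower at an adjusted p under 0.05, where 0.00630% of all tested genes were called. At an unadjusted p under 0.05 there were 3 members (8.33%), against 5.51% of all tested genes. Aars and Hars were the higher ones, where 2.94% of all tested genes passed in that direction, and Lars2 the lower one, where 2.57% did. DESeq2 called 1 member, Aars, and 1.77% of the genes to which it gave an adjusted p. Limma-voom called 0 of 36, with 2 at an unadjusted p under 0.05. It gave Parp12 itself an adjusted p of 0.28, so its 0 calls say little about the members. Log2 fold changes of members ran from -0.65 to 0.76 with a median of 0.03, beside a median of 0.00 over all tested genes. There were 21 members above 0 and 15 below. Both knockdown libraries lay above both controls in 8 members, where 18.0% of all tested genes did so, and below both controls in 3, where 16.8% did. The groups thus did not overlap in 11 members, against 34.9% of all tested genes.

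The size of change that these libraries could show depended on the level. The 95% interval of the log2 fold change excluded a 2-fold change in either direction for 23 of 36 members (63.9%), against 46.7% of all tested genes, and a 1.5-fold change for 19 (52.8%), against 28.8%. By compartment, 17 of 20 cytosolic and 6 of 16 mitochondrial intervals excluded a 2-fold change. All 11 members above 100 CPM did so, as did 2426 of 2427 genes at that level, and 12 of 18 members between 10 and 100 CPM, where 81.8% of genes did. Of the 7 members under 10 CPM (Vars, Yars, Nars2, Mars2, Pars2, Aars2 and Ears2) 0 did, where 1.7% of genes did. Of these intervals, those of Aars2 (from -0.52 upwards) and Ears2 (from -0.23 upwards) excluded a 2-fold lower level, and those of Mars2 (up to 0.71) and Pars2 (up to 0.87) a 2-fold higher one. The median log2 fold change was 0.03 for the 20 cytosolic genes and 0.03 for the 16 tested mitochondrial genes. Its absolute value had a median of 0.09 in cytosolic and 0.29 in mitochondrial genes, beside 0.25 over all tested genes.

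**Figure D3:**
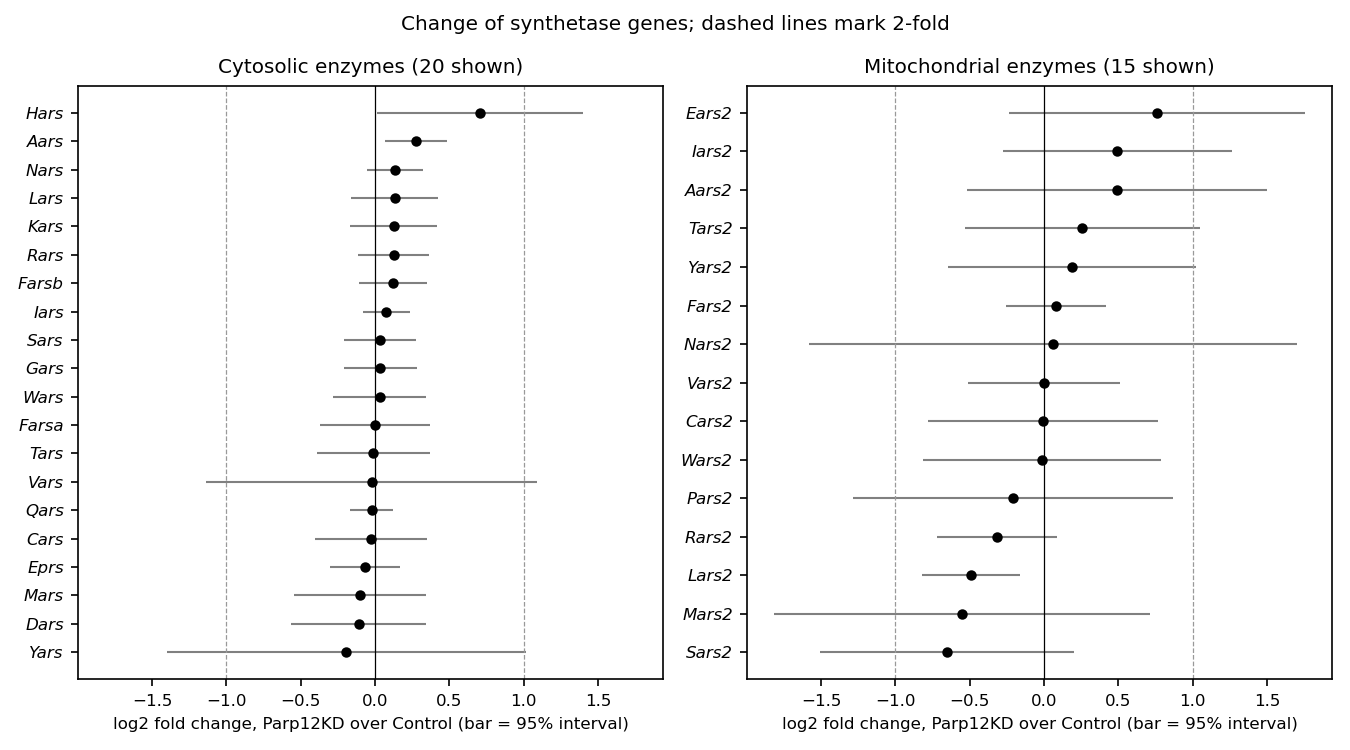
Log2 fold change of the tested synthetase genes, 35 of 36 shown, Parp12KD over Control, with cytosolic enzymes on the left and mitochondrial enzymes on the right. Points are edgeR estimates, bars are 95% intervals, and dashed lines mark a 2-fold change: Aars, Hars and Lars2 are the only bars of all 36 genes that do not cross 0, and 0 of them passed the adjusted threshold.

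Aars, for alanine, had the smallest p among cytosolic genes. It lies on chromosome 8 from 111033144 to 111057664 on the plus strand of mm10 and is the gene whose promoter is printed above. It had 9379 and 8629 counts in Parp12KD libraries, and 8754 and 7621 counts in Control libraries. Its level was 220.3 and 241.0 CPM in Parp12KD libraries, against 193.5 and 186.2 CPM in Control libraries, so the groups did not overlap. This gave a log2 fold change of 0.28 (SE 0.10) and a 95% interval of 0.07 to 0.48. The adjusted p was 0.835 by edgeR. DESeq2 gave 0.0312, a call that no other setting made, and over all alternatives the adjusted p ran from 0.0312 to 0.994. Exosc6, an exosome subunit gene on the same strand, shares 1326 exonic bases (14.3%) with Aars and had 0 counts in all 4 libraries. How reads in bases shared by both genes were assigned is not stated. The 0 therefore does not show that Exosc6 RNA was absent, and its part in the Aars values was not tested.

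Hars, for histidine, had the second smallest p in this class, and its libraries overlapped. It had 38.9 and 21.9 CPM in Parp12KD libraries, and 23.0 and 14.6 CPM in Control libraries. Replicate 1 was higher than replicate 2 in both groups. The log2 fold change was 0.71 (SE 0.32, adjusted p 0.835 by edgeR), and it was 0.20 without Parp12KD replicate 1 and 1.10 without Control replicate 1.

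Nars and Farsb were higher in both knockdown libraries by small amounts that did not pass the test. Nars had 276.8 and 264.3 CPM in Parp12KD libraries, against 253.1 and 239.2 CPM in Control libraries, a log2 fold change of 0.13 (SE 0.09, adjusted p 0.862 by edgeR). Farsb had 170.8 and 178.1 CPM in Parp12KD libraries, against 167.7 and 152.1 CPM in Control libraries, a log2 fold change of 0.12 (SE 0.10, adjusted p 0.916 by edgeR). When a library was left out, Farsb ran from 0.04 (without Control replicate 2) to 0.21 (without Control replicate 1), and Nars from 0.08 to 0.19 without the same libraries. The other cytosolic members whose libraries did not overlap were Lars, for leucine, and Wars, also higher in both knockdown libraries, with log2 fold changes of 0.13 and 0.03. Rars and Iars overlapped, with log2 fold changes of 0.13 (SE 0.11) and 0.08 (SE 0.07) and adjusted p of 0.917 and 0.930 by edgeR. Without Parp12KD replicate 2 the value of Rars was -0.06 and that of Iars 0.02. Qars, the second most abundant member per kb, had a log2 fold change of -0.02 with a 95% interval from -0.17 to 0.12.

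Lars2 had the smallest p of all members. The gene, for mitochondrial leucine charging, lies on chromosome 9 from 123366927 to 123462666 on the plus strand of mm10. It had 5371 and 3045 counts in Parp12KD libraries, and 6554 and 6354 counts in Control libraries. Its level was 126.1 and 85.0 CPM in Parp12KD libraries, against 144.9 and 155.2 CPM in Control libraries. Both knockdown libraries were lower, and Parp12KD replicate 2 was the lowest. Lars2 thus had a log2 fold change of -0.49 (SE 0.15) and a 95% interval of -0.82 to -0.16. The adjusted p was 0.835 by edgeR and ran from 0.0776 to 0.994 over all alternatives. The change was -0.25 without Parp12KD replicate 2 and -0.82 without Parp12KD replicate 1.

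Genes for ribosomal RNA had the same order of libraries as Lars2, and 0 of 3 passed the test. CT010467.1, a nuclear ribosomal RNA gene, had 687.1 and 410.1 CPM in Parp12KD libraries, against 761.9 and 884.6 CPM in Control libraries. The mitochondrial ribosomal RNAs had 304.9 and 263.3 CPM (mt-Rnr1) and 427.1 and 393.7 CPM (mt-Rnr2) in Parp12KD libraries, against 352.0 and 396.3 CPM (mt-Rnr1) and 499.7 and 527.5 CPM (mt-Rnr2) in Control libraries. In all of these genes, as in Lars2, the order of the libraries from low to high was Parp12KD replicate 2, Parp12KD replicate 1, Control replicate 1 and Control replicate 2. Of all tested genes, 4.06% had this order. The log2 fold changes were -0.58 (CT010467.1), -0.39 (mt-Rnr1) and -0.32 (mt-Rnr2), each with an adjusted p of 0.835 by edgeR.

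The last of the 21 exons of Lars2 holds a run of 52 bases, in the 3′ untranslated region at chr9:123462048-123462099, that is also in the noncoding gene Gm15564. The first 30 of these bases are shown because they carry this overlap. A likeness of these letters to the large ribosomal RNA of the cytosolic ribosome is known only as background and was not compared with a reference here.
Lars2, plus strand, chr9:123462048-123462077: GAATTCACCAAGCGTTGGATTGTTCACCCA
Gm15564 had 20 and 4 counts in Parp12KD libraries, and 41 and 68 counts in Control libraries. This was the same order, in a gene with few counts that was also chosen after its values were seen. Lars2 transcripts shared 0 stretches of 50 bases with CT010467.1, mt-Rnr1 or mt-Rnr2, and 22 of 11217 (0.196%) with all other annotated transcripts. The table gives 1 count per gene, so reads of this run were not separated from the rest of Lars2, and the part of ribosomal RNA in the Lars2 values was not tested.

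**Figure D4:**
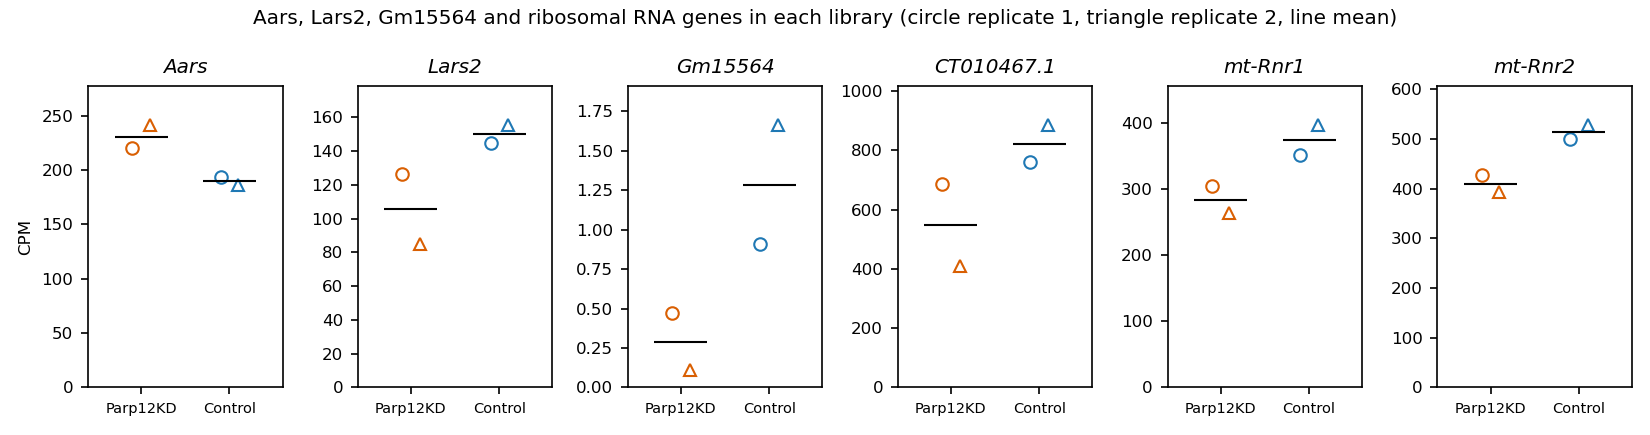
CPM of Aars, Lars2, Gm15564, CT010467.1, mt-Rnr1 and mt-Rnr2 in each library, with Parp12KD in orange on the left and Control in blue on the right (circle replicate 1, triangle replicate 2, line mean of 2), each panel on its own linear scale from 0. Lars2 and the 4 genes after it have their lowest value in Parp12KD replicate 2 and their highest in Control replicate 2, whereas Aars has its highest in Parp12KD replicate 2.

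Among the other mitochondrial genes, Rars2 and Sars2 were lower in both knockdown libraries. Rars2 had 36.7 and 38.8 CPM in Parp12KD libraries, against 44.7 and 49.3 CPM in Control libraries, a log2 fold change of -0.32 (SE 0.19, adjusted p 0.843 by edgeR). Sars2, for serine, had 6.32 and 9.97 CPM in Parp12KD libraries, against 11.9 and 13.2 CPM in Control libraries, a log2 fold change of -0.65 (SE 0.39, adjusted p 0.843 by edgeR). The direction of both was kept in the fits that left out a library, with values from -0.38 to -0.26 for Rars2 and from -0.99 to -0.33 for Sars2 over all alternatives. Neither passed the test in any of them.

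Ears2 and Aars2 were higher in both knockdown libraries, also without passing the test. Ears2, for glutamate, had 7.63 and 12.2 CPM in Parp12KD libraries, against 6.23 and 5.15 CPM in Control libraries, a log2 fold change of 0.76 (SE 0.46, adjusted p 0.843 by edgeR). It was 0.41 without Parp12KD replicate 2 and 1.09 without Parp12KD replicate 1. Ears2 shares 89 exonic bases with Ubfd1 on the other strand, which had between 8426 and 10261 counts, against 211 to 436 for Ears2. Aars2 had 7.63 and 7.57 CPM in Parp12KD libraries, against 5.48 and 5.33 CPM in Control libraries, a log2 fold change of 0.49 (SE 0.47, adjusted p 0.928 by edgeR). Both alanine enzymes were thus among the 8 members with both knockdown libraries above both controls, where 18.0% of all tested genes did so. Aars2 was chosen after its values were seen, and its interval covered lower as well as higher levels. A shared change of the alanine enzymes was not tested. Iars2 overlapped, with 12.8 and 21.8 CPM in Parp12KD libraries, and 11.1 and 13.0 CPM in Control libraries. Its values are uncertain, since 22.9% of its exonic bases overlap Rab3gap2 on the other strand, which had between 11332 and 14565 counts. Its log2 fold change was 0.49, and 0.09 without Parp12KD replicate 2. Mars2 overlapped as well, with a log2 fold change of -0.55.

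Grouping the enzymes by complex or by structural class gave medians near that of all genes. In mammals 8 cytosolic proteins (those of Dars, Eprs, Iars, Kars, Lars, Mars, Qars and Rars) join in a multisynthetase complex. Their log2 fold changes ran from -0.11 to 0.13 with a median of 0.03. All 8 intervals excluded a 1.5-fold change. The other 12 cytosolic genes had a median of 0.03 and ran from -0.19 to 0.71, and 9 of 12 intervals excluded a 1.5-fold change. The intervals that did not were those of Vars and Yars, under 10 CPM, and Hars, at 24.6 CPM. Every gene of the complex had a higher level, the lowest being Dars at 33.6 CPM. Of all tested genes, 36.6% excluded a 1.5-fold change between 10 and 100 CPM, and 97.8% above 100 CPM. Membership of the complex was thus not separated from level. Synthetases fall into classes I and II by the fold of their catalytic domain. Class II had 13 of 17 tested members above 0 with a median of 0.08, and class I, with Eprs counted there, had 8 of 19 above 0 with a median of -0.01. Over all tested genes 50.4% lay above 0.

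Genes that work beside the synthetases did not pass the test either. The scaffold proteins of the multisynthetase complex (Aimp1, Aimp2 and Eef1e1) had log2 fold changes above 0 in 3 of 3. Aimp2 had the smallest p of them, with 31.8 ± 0.0795 CPM in Parp12KD libraries and 24.4 ± 0.902 CPM in Control libraries (SD, n = 2 each), a log2 fold change of 0.38 (SE 0.23, adjusted p 0.843 by edgeR). Of the mitochondrial amidotransferase that makes glutaminyl-tRNA (Gatb, Gatc and Qrsl1), 0 of 3 were called. Qrsl1, its catalytic subunit, had 12.0 ± 1.04 CPM in Parp12KD libraries and 6.26 ± 0.851 CPM in Control libraries (SD, n = 2 each), a log2 fold change of 0.95 (SE 0.41, adjusted p 0.835 by edgeR). The factors that bring charged transfer RNA to the ribosome included 0 calls among 4 cytosolic and 4 mitochondrial genes. Tufm, the mitochondrial elongation factor of this step, had 23.5 ± 4.36 CPM in Parp12KD libraries and 33.6 ± 5.44 CPM in Control libraries (SD, n = 2 each). Its cytosolic counterpart Eef1a1 had 1687 ± 45.6 CPM in Parp12KD libraries and 1660 ± 44.1 CPM in Control libraries (SD, n = 2 each). Eef1g, a subunit of the exchange factor of that protein, had the smallest p among the cytosolic ones, with 31.9 ± 2.36 CPM in Parp12KD libraries and 27.9 ± 1.71 CPM in Control libraries (SD, n = 2 each).

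Of 7 tested genes for related enzymes and editing factors, and of 6 for transfer RNA maturation, 0 were called. Those with the smallest p were Prorsd1, with 3.49 ± 1.77 CPM in Parp12KD libraries and 1.38 ± 0.228 CPM in Control libraries, and Hsd17b10, a subunit of mitochondrial RNase P, with 5.18 ± 1.95 CPM in Parp12KD libraries and 8.80 ± 3.59 CPM in Control libraries (SD, n = 2 each). Among the 19 tested genes of the ATF4 list 0 were called, 6 lay above 0 and 13 below, and the median log2 fold change was -0.08. Atf4 itself had 315.0 ± 0.0354 CPM in Parp12KD libraries and 316.6 ± 24.2 CPM in Control libraries (SD, n = 2 each). Sesn2, an inhibitor of mTORC1 that senses leucine, had the smallest p, at 8.09 ± 2.21 CPM in Parp12KD libraries and 16.5 ± 3.04 CPM in Control libraries, with a 95% interval of the log2 fold change from -1.80 to -0.20 (adjusted p 0.835 by edgeR). The synthetase genes with the C/EBP-ATF motif printed above had log2 fold changes of 0.28 (Aars), 0.03 (Gars), 0.08 (Iars), -0.01 (Tars) and -0.19 (Yars).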

How the data were processed

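Raw counts of reads were deposited as a single table for all 4 libraries, which per the file headers has the layout of featureCounts with each gene's summed exon length. Per the submitters' processing notes, mm10 was the build and the tools were featureCounts 2.0.0, STAR 2.7.5b, Trim Galore 0.6.4 and DESeq2 1.28.1, with no roles stated. How strand and reads with several alignments were handled is not given. Per the labels' protocols, libraries were made from poly(A) RNA. Since no label ties replicates to separate animals, the spread behind each p-value is that between these samples and may be technical.

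The analysis used edgeR 4.0.16 under R 4.3.3: filterByExpr (minimum count 10, total 15) left 15868 genes, followed by TMM factors, glmQLFit (robust, not legacy) and a two-sided glmQLFTest with group as the only term, adjusted by Benjamini-Hochberg over all tested genes at 0.05. Intervals are 95%. CPM divides by library totals. Alternatives used other scaling factors, filters and lengths, the replicate number as a block, left-out libraries, DESeq2 1.42.0, limma-voom (limma 3.58.1) and edgeR's legacy fit. The test was tried first on simulated data. An exact permutation test of 2 against 2 libraries cannot go below a two-sided p of 0.333, so none is given. Members, lists and motifs were chosen with earlier results of these data known. The rule for named genes took the 6 genes of each class with the smallest p, the extremes of level, pairs with the mitochondrial gene at or above the cytosolic one, and the smallest p of each partner list. Other genes named with values (Qars, Lars, Wars, Aars2, Mars2, Serpine2, Cyp19a1, Kitl, Fshr, Atf4, Eef1a1, the ribosomal RNA genes and Gm15564) were chosen after their values were seen. One member enters every count but its own values are not reported here. Coordinates of all 37 members matched GENCODE vM21. Entries lacking a gene name numbered 0, as did columns of other samples. The limit for a count of 0 covers counting error only.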

Additional observations from a re-analysis of the deposited data

How the results depend on the processing

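The count of members called stayed at 0 in the edgeR alternatives that kept both libraries of each group and in limma-voom, and was 1 (Aars) with DESeq2. Limma-voom did not call Parp12 either. The count over all genes was 1 under edgeR's reported settings, 8 when only genes reaching 1 CPM in both libraries of either group were kept, 297 with DESeq2 and 0 with limma-voom, and it ran from 1 to 2 when a library was left out. The median log2 fold change of cytosolic genes ran from -0.0125 (without Parp12KD replicate 2) to 0.0707 and that of mitochondrial genes from -0.0639 to 0.280 when a library was left out, the mitochondrial one highest without Control replicate 2 and lowest without Control replicate 1. With GENCODE coding lengths, added after seeing the data, the log2 ratio of cytosolic to mitochondrial median levels was 2.75. Of the fold changes of the 6 members with the smallest p in each class, only that of Rars changed sign, at -0.0641 without Parp12KD replicate 2 and up to 0.305 without Parp12KD replicate 1. Scaling moved the median of all genes by less than 0.1. Same-numbered libraries did not deviate together (correlation over genes 0.008), and with the replicate number as a block edgeR called 1 gene and 0 members, with Aars at 0.28 and Lars2 at -0.51. The planned length from RefSeq proteins was not run. Depth and the spread of 2 libraries a group limit what can be said of members under 10 CPM.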

Other observations

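The subunits of cytosolic phenylalanyl-tRNA synthetase, which form one enzyme, had unequal transcript levels. Farsb exceeded Farsa by 5.18 and 5.36 times per kb of exons in Parp12KD libraries, and by 5.77 and 4.07 times in Control libraries. Per kb of coding sequence the ratio was 2.58 and 2.67 in Parp12KD libraries, and 2.87 and 2.03 in Control libraries. The groups overlapped.

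Motifs of 2 factors known for housekeeping and mitochondrial genes were also counted in the promoter windows. The NRF1 site, searched as GCGCA, any base and then GCGC, occurred on either strand in 3 of 13 cytosolic promoters (Farsb, Kars and Tars), in 2 of 14 mitochondrial promoters (Iars2 and Mars2) and in 4.60% of all promoter windows. The letters CCGGAAG, of ETS factors, occurred in 5 of 13 cytosolic and 4 of 14 mitochondrial promoters and in 8.86% of all windows. No match of one motif overlapped a match of another in these genes.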
